A study of Mus musculus with 16 samples.

Results

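The 124 probes described here were far brighter in the wild-type mouse testis at P30 than at P21. Of the 124, 96 were already detected on both P21 wild-type arrays. In the Emi2 knockout most of the 124 stayed near background up to P60, and a few came up to a lower level than in wild type. Most, but not all, were near background in the youngest testis. They were chosen by measured values, from 25689 regular probes, on the log2 values deposited by the authors. A probe was kept where the P30 wild-type mean exceeded the P21 wild-type mean by at least 3, where P21 exceeded P15 in wild type by less than 2.5, and where P60 exceeded P21 in knockout by less than 1.5. The first condition held for 142 probes, the first and second together for 125, and all conditions for 124. The series holds 16 arrays of whole testis RNA from C57BL/6 mice. They form 8 groups of 2 arrays, one for each of the genotypes wild type and Emi2 knockout at postnatal days 15 (P15), 21 (P21), 30 (P30) and 60 (P60). The knockout allele is not described in the labels, and separate animals are not stated for the paired arrays, so a p-value reflects the spread between arrays and that spread may be technical. The growth protocol has p12 for the youngest age, where every other label has P15, which is used here.

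Emi2 inhibits the anaphase-promoting complex, a ubiquitin ligase whose activity ends cell division, and is best known for holding the mouse egg in meiosis until fertilisation. In the mouse the first wave of spermatogenesis runs in near synchrony after birth: spermatocytes in meiotic prophase fill the tubules first, haploid round spermatids follow, and elongating spermatids, which repackage the genome and build the acrosome and tail, come later. Whole testis RNA over these ages therefore follows the arrival of cell types, and in such bulk samples fewer cells of a type and less RNA per cell cannot be told apart.

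Results are given by probe identifier, because those named after proteins of the ribosome, a machine of all cells, were detected no more often than those named after odorant receptors of the nose. Of 16 probes named for a list of 12 elongating spermatid genes 0 were members, and 5 passed detection on both P60 arrays of wild type. Of 8 probes named for round spermatid genes 1 was a member, and of 79 named for ribosomal proteins 0 were members and 36 (45.6%) passed detection on both of these P60 arrays. The share was 48.7% for 1154 probes named for olfactory receptors, of which 7 were members, and 47.8% for all regular probes. The lists for pachytene spermatocytes (10 of 14 probes, 71.4%), Sertoli cells (3 of 5) and macrophages (9 of 12) were above that share, and those for round spermatids (3 of 8) and Leydig cells (3 of 7) below it. The labelled tissue could not be checked against its defining markers for the same reason, and no role is given for a probe.

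Each array detected 13167 to 14630 regular probes (detection p under 0.05), and replicate arrays correlated at 0.980 to 0.994 across regular probes in the deposited log2 values. Levels below are log2 signals after normexp background correction and quantile normalization, on which background lies near 4.3 to 5. A probe detected on neither array of a group is called not well above background there, and a fold against such a group is a lower bound ("at least"). That bound takes, on each dim array, the higher of the probe's own signal and the lowest signal of any detected probe, which lay between 5.10 and 5.27 on the P15 and P30 knockout arrays.

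In wild type the median of the members went from background to bright, although 20 members were detected on both P15 arrays. At P15 the members' median was 4.70 on array 1 and 4.70 on array 2, with 22 and 28 of 124 members detected. At P21 the medians were 6.44 and 6.72, and 97 and 110 members were detected. At P30 they were 11.24 and 12.22, and at P60 12.29 and 12.35, with all 124 members detected on each of these 4 arrays. The P15, P21 and P30 values chose the members, so this course is a description. The P60 wild-type arrays took no part in the choice, and on them the lowest member stood at 10.10 and the highest at 14.95.

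In knockout the members' median stayed near background at every age. It was 4.70 and 4.73 at P15, 4.66 and 4.69 at P21, 4.74 and 4.85 at P30, and 4.79 and 4.79 at P60. Members not well above background numbered 94 at P15, 87 at P21, 85 in P30 knockout and 82 in P60 knockout, while 22, 23, 26 and 32 were detected on both arrays of those groups. In all, 65 members were detected on none of the 8 knockout arrays and 14 on all 8. Every member lay lower on each of the 8 knockout arrays than on either P60 wild-type array, as did 15.6% of the 17355 probes detected on at least 2 arrays. The smallest such gap was 2.80 on the log2 scale, and the P21 and P60 knockout arrays among the 8 were used to choose the members.

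The arrays of P15 knockout, P30 knockout and P60 wild type were not used to choose the members, and comparisons among these 6 arrays were tested with limma over all 17355 probes detected on at least 2 arrays. All 124 members were among them, each through its P30 and P60 wild-type arrays. These comparisons share groups with one another, and those of P60 wild type with a knockout group differ in age and genotype together, which cannot be told apart. The rule chose members for a high P30 wild-type level and a limited rise in knockout. A higher level in P60 wild type than in knockout was therefore largely set in advance, and these tests mainly give its size.

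All 124 members were higher in P60 wild type than in P30 knockout (limma, adjusted p of 3.12e-05 or less for each member), and 0 were lower. Of all tested probes 13.9% were higher and 27.5% lower. The members' median fitted log2 difference was 7.10, against -0.31 for all tested probes, and 6.70 with the 85 members not well above background in P30 knockout set at their lower bounds. The other 39 members had differences of 3.68 to 8.76. Of these, 26 were detected on both P30 knockout arrays and 13 on only 1, so the differences of the 13 rest partly on a signal not well above background. Both P60 wild-type arrays lay above both P30 knockout arrays for 124 of 124 members and for 22.1% of all tested probes. The lower bounds of the 85 ran from 46.0-fold to 769.8-fold. For the 14 members measured on all 8 knockout arrays, P60 wild type was 20.3-fold to 202.2-fold higher than P30 knockout.

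All 124 members were also higher in P60 wild type than in P15 knockout (limma, largest adjusted p = 1.61e-06) and 0 were lower, against 23.9% higher and 40.8% lower among all tested probes. The median fitted log2 difference was 7.33 for the members, or 6.98 with 94 members at their lower bounds, and -0.33 for all tested probes.

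Within the knockout, 9 members were higher and 5 lower at P30 than at P15 (limma, adjusted p under 0.05), or 14 of 124, where 19.0% of all tested probes were higher and 27.3% lower. With the deposited log2 values 4 were higher and 3 lower. The 5 lower became 3 without P15 Emi2 knockout replicate 2, 2 without P30 Emi2 knockout replicate 1, and 8 without either P30 wild-type array. Both P30 knockout arrays lay below both P15 knockout arrays for 27 members and 42.5% of all tested probes. In these 27 members both P30 arrays lay above both P15 arrays in wild type, a direction the rule largely fixed, and 3.08% of all tested probes had both patterns. The members' median log2 difference was 0.06, and -0.12 for all tested probes. A member at background in both groups, as most were, has no measured difference between them. Of the 9 members higher at P30, 8 were not well above background at P15 and all 9 were detected on both P60 knockout arrays.

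The 8 members with the largest wild-type step from P21 to P30 were near background in every knockout group. ILMN_1228907 had the largest step in the deposited log2 values, 5.63. Its corrected log2 signal was 4.42 and 4.55 on the P15 wild-type arrays, 4.80 and 5.36 at P21, 12.24 and 13.58 at P30, and 13.72 and 13.73 at P60. In knockout it was 4.30 and 4.64 at P15, 4.58 and 4.41 at P21, 4.70 and 4.46 at P30, and 4.42 and 4.50 at P60. The P30 and P60 wild-type arrays were thus far above all the others, with no overlap. P60 wild type was at least 357-fold higher than P30 knockout (limma adjusted p = 7.42e-11).

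ILMN_1222337, which carries the same accession in the gene table as ILMN_1228907, followed it closely. It was 4.85 and 5.66 at P21, 12.24 and 13.52 at P30 and 13.66 and 13.90 at P60 in wild type, and between 4.54 and 4.82 on the 8 knockout arrays. P60 wild type was at least 370-fold higher than P30 knockout (limma adjusted p = 9.05e-11). ILMN_2643786 was 4.59 and 5.50 at P21, 12.04 and 13.31 at P30 and 13.10 and 13.40 at P60 in wild type, at least 257-fold above P30 knockout at P60 (limma adjusted p = 1.64e-10). Each of these 3 members was detected on 1 of 2 P21 wild-type arrays.

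The other members of this group of 8 were already detected on both P21 wild-type arrays. ILMN_1222251 was 7.38 and 8.73 at P21, 13.32 and 14.38 at P30 and 14.72 and 14.95 at P60 in wild type, and between 4.38 and 4.66 on all knockout arrays. P60 wild type was at least 770-fold higher than P30 knockout (limma adjusted p = 6.37e-11). ILMN_1247947 was 6.51 and 7.59 at P21, 12.31 and 13.49 at P30 and 13.31 and 13.68 at P60 in wild type, at least 304-fold above P30 knockout at P60. For ILMN_1217706, ILMN_2813524 and ILMN_2962473 that bound was 233-fold, 179-fold and 209-fold. None of these 5 was well above background in any knockout group.

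ILMN_3087593 and ILMN_2958410 also had a large fitted difference between P60 wild type and P30 knockout. Both were at background in P30 knockout, so the order of such probes is not measured. ILMN_3087593 was 8.88 and 9.57 at P21, 13.74 and 14.57 at P30 and 14.68 and 14.82 at P60 in wild type, where it was at least 725-fold above P30 knockout (limma adjusted p = 3.29e-11). It was detected on 1 of 2 arrays in P15 wild type and in P60 knockout. ILMN_2958410 was 8.85 and 8.68 at P21, 12.45 and 13.21 at P30 and 13.74 and 13.53 at P60 in wild type, at least 334-fold above P30 knockout (limma adjusted p = 1e-11). Both were thus partly on by P21.

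Members differed among themselves at P21 in wild type, the age before the step. At P21 13 members were detected on neither wild-type array, 15 on 1 and 96 on both, although the rule capped the step from P15 to P21. Both P21 wild-type arrays lay above both P21 knockout arrays for 96 members, a comparison that shares all its arrays with the rule, and for 15.2% of all tested probes. Where P21 knockout was not well above background and a bound could be given (67 members), P21 wild type was at least 1.05-fold to at least 20.8-fold higher.

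ILMN_2727376 and ILMN_2498592 stood at one end, with no signal above background at P21. ILMN_2727376 was 4.64 and 4.59 at P21, 9.03 and 11.02 at P30 and 11.71 and 11.72 at P60 in wild type. ILMN_2498592 was 4.39 and 4.37 at P21, 9.10 and 10.88 at P30 and 11.40 and 11.48 at P60. Both were not well above background in any knockout group, and at P60 wild type was at least 88.3-fold and 73.1-fold above P30 knockout (limma adjusted p = 5.98e-09 and 2.73e-09).

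ILMN_3163087 stood at the other end, just under the cap on the early step in the deposited log2 values. On the corrected values its step from P15 to P21, 4.82, was larger than that from P21 to P30, 4.04. It was 4.57 and 4.53 at P15, 9.27 and 9.46 at P21, 13.07 and 13.74 at P30 and 13.62 and 13.36 at P60 in wild type, and between 4.36 and 4.71 on all knockout arrays. Wild type was far above knockout already at P21 for this member, and at P60 it was at least 303-fold above P30 knockout (limma adjusted p = 1e-11). ILMN_2620767 was 9.42 and 9.57 at P21, 12.97 and 13.66 at P30 and 13.63 and 13.77 at P60 in wild type. It too was not well above background in any knockout group. On the corrected values the early step was the larger for other members as well. Among them were ILMN_2620767 (4.47 against 3.82) and ILMN_2948987 (3.79 against 3.36).

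The P30 wild-type arrays did not give the same level for the members. Array 2 was higher than array 1 for 124 of 124 members, by a median of 1.07 on the log2 scale (2.10-fold, range 0.06 to 2.08), while the median over all tested probes was -0.06. At P60 array 2 exceeded array 1 for 86 members, and the median difference over all 124 was 0.09. The P60 wild-type mean exceeded P30 array 1 for all 124 members, by a median of 1.18. It exceeded P30 array 2 for 79, and the median difference over all 124 was 0.08. Array 2 was also the higher at P30 in 16 of 17 probes that met the step but were already up by P21. The median difference over these 17 was 0.71. Whether the difference between these arrays comes from the testes or from the arrays was not tested.

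The rule rests on this pair of arrays. Without P30 wild type replicate 1 it would keep 206 probes, the 124 among them, and without replicate 2 it would keep 68, all among the 124. All 206 and all 68 were higher in P60 wild type than in P30 knockout (limma, adjusted p under 0.05), a check added after the arrays were seen to differ. Both sets were chosen by the same rule, which largely set this direction in advance. The check therefore cannot show whether the difference between the P30 arrays distorted the membership.

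The gap between the P30 arrays was larger in members that were low at P21. In the 13 members detected on neither P21 wild-type array its median was 1.59 (range 1.07 to 2.08), and in the 96 detected on both it was 0.999. Across the 124 members the gap and the step from P15 to P21 in wild type correlated at -0.61. Members share all their arrays and are not independent, so this is a description with no p.

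From P30 to P60 the wild-type group mean was higher for all 124 members, by a median of 0.61, against -0.05 over all tested probes, and both P60 arrays were above both P30 arrays for 60 members and 16.9% of all tested probes. The P30 arrays chose the members, so these values are a description, and the difference between the P30 arrays enters them. The largest differences were 1.69 for ILMN_2727376, 1.45 for ILMN_2498592 and 1.32 for ILMN_1217403, which was 10.98 and 12.52 at P30 and 13.04 and 13.10 at P60. The smallest were 0.09 for ILMN_3163087, 0.10 for ILMN_2948987 and 0.13 for ILMN_2845542, less than the difference between the P30 arrays of each. ILMN_2845542 was 11.96 and 12.46 at P30 and 12.38 and 12.30 at P60.

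Knockout and wild type of the same age were compared as a description, since each comparison shares arrays with the rule. At P30 both wild-type arrays were above both knockout arrays for 124 members and 19.4% of all tested probes, with lower bounds of 25.9-fold to 479.6-fold for the 85 members at background in knockout. At P60 this held for 124 members and 23.7% of all tested probes, with lower bounds of 45.1-fold to 755.3-fold for 82 members.

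A few members did come up in the knockout, to a lower level than in wild type. ILMN_1231230 was 4.44 and 4.39 in P15 knockout, 4.62 and 4.99 at P21, 8.79 and 8.50 at P30 and 8.41 and 7.88 at P60. It was at least 11.4-fold higher in P30 than in P15 knockout (limma adjusted p = 9.69e-08). In wild type it was 8.56 and 8.90 at P21, 12.06 and 12.96 at P30 and 12.91 and 12.71 at P60, so that P30 knockout lay close to P21 wild type and 4.17 below P60 wild type on the log2 scale (limma adjusted p = 5.02e-08).

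ILMN_1216939 was on in knockout at P21 as well, at 7.34 and 6.21, and stood at 8.23 and 7.79 in P30 knockout and 8.57 and 8.41 in P60 knockout. It was at least 7.34-fold higher in P30 than in P15 knockout (limma adjusted p = 1.97e-05). In wild type it was 6.45 and 6.06 at P21 and 11.59 and 11.79 at P60. Its log2 difference between P60 wild type and P30 knockout, 3.68 (limma adjusted p = 7.73e-06), was the smallest of all members.

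ILMN_3136894 was 6.85 and 6.47 in P21 knockout and 7.26 and 7.48 in P30 knockout, at least 4.72-fold above P15 knockout (limma adjusted p = 0.000164). ILMN_1227837 was 7.23 and 6.87 in P30 knockout, at least 3.77-fold above P15 knockout (limma adjusted p = 0.000288). ILMN_1226553 was 6.59 and 5.87 and ILMN_2667384 6.12 and 6.01 in P30 knockout, at least 2.14-fold and 1.91-fold above P15 knockout (limma adjusted p = 0.00724 and 0.00249). The last of these was one of the 3 members nearest the threshold of the step and was at 10.48 and 10.10 in P60 wild type. The calls of ILMN_1226553 and ILMN_2667384 were lost with the deposited log2 values (limma adjusted p = 0.145 and 0.143), and that of ILMN_1226553 also without P30 Emi2 knockout replicate 1 (limma adjusted p = 0.081). Over all 9 members higher in P30 than in P15 knockout, the log2 difference between P60 wild type and P30 knockout ran from 3.68 to 7.60.

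The members that were lower in P30 than in P15 knockout already had a signal before the step. Of the 124 members 19 were detected on all 4 P15 arrays and 87 on none, and all 5 members that fell were among the 19. ILMN_2740494 was at 9.93 and 9.80 in wild type and 9.74 and 9.96 in knockout at P15. In wild type it was 8.17 and 8.91 at P21, 12.32 and 13.50 at P30 and 13.37 and 13.76 at P60. In knockout it was 8.99 and 9.04 at P21, 8.21 and 8.57 at P30 and 8.03 and 8.20 at P60, a fall of P30 below P15 with a log2 difference of -1.46 (limma adjusted p = 0.00299).

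ILMN_2476131 ran almost alike. It was 9.65 and 9.51 in wild type and 9.64 and 9.73 in knockout at P15, and 8.23 and 8.65 in wild type and 8.87 and 8.64 in knockout at P21. At P30 it was 12.21 and 13.15 in wild type and 7.94 and 8.31 in knockout, where its log2 difference from P15 was -1.56 (limma adjusted p = 0.000511). For both probes the P21 arrays were below the P15 arrays in each genotype. At P21 the log2 difference of wild type minus knockout was -0.48 for ILMN_2740494, with no overlap of arrays. It was -0.31 for ILMN_2476131, where the arrays overlapped. Wild type was far above knockout only after P21.

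ILMN_2491462 was 8.65 and 8.59 in P15 knockout and 7.25 and 7.78 in P30 knockout, a log2 difference of -1.11 (limma adjusted p = 0.00444). ILMN_3144673 was 6.78 and 6.93 in P15 knockout and 5.86 and 6.00 in P30 knockout, a difference of -0.92 (limma adjusted p = 0.0137). The calls of both were lost without P30 Emi2 knockout replicate 1 (limma adjusted p = 0.061 and 0.0782). That of ILMN_3144673 was also lost without P15 Emi2 knockout replicate 2 (limma adjusted p = 0.0769) and with the deposited log2 values (limma adjusted p = 0.217).

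The 19 members with a signal at P15 had a median log2 difference between P60 wild type and P30 knockout of 5.73. ILMN_1233733, also among the 19, had one of the 4 smallest fitted differences, 4.34 (limma adjusted p = 1.98e-08). It was 7.63 and 7.42 in P15 knockout and 6.94 and 7.13 in P30 knockout (limma adjusted p = 0.176), and 11.30 and 11.45 in P60 wild type.

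Some members share an accession in the gene table. Among 51 probe pairs that share a symbol and an accession and hold at least 1 member, both probes were members in 3, and in 34 pairs that share a symbol but not an accession this was so in 0. Beside the pair above, ILMN_2652882 and ILMN_2929518 were 12.33 and 12.44 and 11.91 and 12.33 on the P60 wild-type arrays. ILMN_2647170 and ILMN_2821148 were 11.30 and 11.51 and 12.67 and 12.37 on those arrays, and 4.76 and 4.68 and 8.60 and 7.93 on the P21 wild-type arrays, where the first was at background. These 4 identifiers were singled out after their values were seen.

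The thresholds of the rule cut through a continuous range. Just inside the limit of 3 for the wild-type step in deposited log2 values lay ILMN_3136894 at 3.01, ILMN_2878501 at 3.02 and ILMN_2667384 at 3.02, and just outside lay ILMN_2630818 at 2.99, ILMN_2690396 at 2.99 and ILMN_2902605 at 2.98. Just inside the cap of 2.5 on the early step lay ILMN_3163087 at 2.498, ILMN_2620767 at 2.44 and ILMN_2948987 at 2.40, and outside it ILMN_3004538 at 2.501, ILMN_2979430 at 2.53 and ILMN_1255390 at 2.58. Just inside the knockout limit of 1.5 lay ILMN_1231230 at 1.46, ILMN_2800183 at 1.26 and ILMN_2987102 at 1.14.

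ILMN_1234617, at 1.79, was the only probe kept out by the knockout limit alone. It was 8.10 and 8.89 in P60 knockout after 4.45 and 6.38 at P30 and 4.78 and 4.48 at P21, and 12.71 or more on the P60 wild-type arrays. ILMN_2987102, just inside, was 4.95 and 6.78 in P30 knockout and 7.11 and 7.93 in P60 knockout, where its 2 P30 arrays lay far apart. ILMN_2800183 was 9.94 and 6.76 in P30 knockout, a wider spread still, and 8.61 and 8.51 in P60 knockout.

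Of the 17 probes that met the step but were already up by P21, 12 were detected on both P60 knockout arrays, against 32 of 124 members. The difference between these groups was not tested.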

How the data were processed

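Biotin-labelled cRNA from whole testis was hybridised to Illumina bead arrays. A deposited table held a signal intensity per probe and array with no normalization, per the file headers, and a detection p-value that rose with signal in regular probes and was read as 1 minus p. The other deposited table held the authors' normalized log2 values. These were recomputed to within 0.00276 by quantile normalization of the log2 intensities of all 26511 rows, and the submitters' processing notes name limma with no version. The 822 control rows (identifier numbers 1343048 to 2038782) were dropped.

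The membership rule used the deposited log2 values as given. For levels and tests, intensities were corrected with the normexp model from detection p-values (offset 16) and quantile normalized. Using limma 3.58.1 (R 4.3.3), a mean per group was estimated over the 17355 regular probes detected on at least 2 arrays (8 groups, 8 residual and 5.81 prior degrees of freedom), with Benjamini-Hochberg adjustment over all of them and a threshold of 0.05. Adjusted p-values are from this model, except those given for the deposited values or without an array, which are from limma refits. All probes were kept, without a choice of 1 per symbol, because the names could not be relied on. The number of arrays limits the precision. The steps were tested on simulated data. For P30 against P15 knockout, 20 of 100 probes shifted by 1 on the log2 scale were found, and 86 of 100 shifted by 2. A change of 1 was thus mostly missed in that simulation. Few of its probes were shifted, whereas in the data 19.0% of tested probes were called higher and 27.3% lower. The adjusted threshold was therefore stricter in the simulation, and its shares do not give what was missed in the data. Among the members, fitted differences as small as 0.81 and -0.81 passed.

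Members, lists and tests were chosen with earlier results of these data known. The name check also had lists for pachytene spermatocytes (0 of 14 probes were members), Sertoli cells (0 of 5), Leydig cells (0 of 7) and macrophages (0 of 12). Probes are named by rule: the 8 largest wild-type steps from P21 to P30; the 6 largest rises and 4 largest falls past the threshold from P15 to P30 in knockout; the 6 largest and 4 smallest fitted differences between P60 wild type and P30 knockout; the 3 largest and 3 smallest differences between P60 and P30 in wild type; and the 3 nearest on each side of each threshold of the rule, where there were as many.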

Additional observations from a re-analysis of the deposited data

Results flagged for a closer look

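In 6 named members detected on all 4 P15 arrays, both P30 wild-type arrays lay above both P15 wild-type arrays. In these 6 both P30 knockout arrays lay below both P15 knockout arrays. Whatever the detection at P15, both patterns held for 27 of 124 members and for 3.08% of all tested probes. The knockout pattern alone held for 42.5% of all tested probes. The 27 include members at background in both knockout groups, where no difference is measured. One is the named ILMN_1247947, at 4.47 and 4.58 in P15 knockout and 4.43 and 4.46 in P30 knockout. The difference between the genotypes was not tested, and the wild-type direction is fixed in part by the rule that chose the members. The log2 difference of P30 minus P15 in knockout was -1.56 for ILMN_2476131, -1.46 for ILMN_2740494, -1.11 for ILMN_2491462, -0.92 for ILMN_3144673, -0.81 for ILMN_2948987 and -0.49 for ILMN_1233733. In wild type it was 3.10, 3.05, 4.38, 5.64, 7.15 and 3.17. Of these, ILMN_1233733 did not pass the limma test in knockout.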

How the results depend on the processing

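The 124 members higher in P60 wild type than in P30 knockout, and than in P15 knockout, were 124 of 124 in every alternative that tested all members: the deposited log2 values, 75th percentile scaling, no filter on dim probes, detection on at least 4 arrays, only the 6 arrays outside the rule, the replicate block and leaving out each array in turn. With 1 probe per symbol 88 members were tested and all 88 were higher. With members chosen without P30 wild type replicate 1 or 2, alternatives added after seeing the data, 206 and 68 were higher in both comparisons. In each of these alternatives the rule largely set that direction in advance. The 9 members higher in P30 than in P15 knockout were 4 with the deposited values and 6 to 12 leaving out each array in turn, and 19 and 4 with the membership without P30 wild type replicate 1 or 2. The 5 lower were 3 with the deposited values, 9 with only the 6 arrays, 2 to 8 leaving out each array in turn, and 14 and 4 with those memberships. The number of members was 68 to 206 leaving out each array the rule uses in turn. It was 208 with a threshold of 2.5 on the wild-type step and 67 with 3.5. It was 66 where each replicate number had to meet the rule on its own. On the corrected values the same thresholds kept 234 probes, 80 of them among the 124. All 124 still met the wild-type step from P21 to P30 there, with a lowest value of 3.30. The members lost were thus over the cap on the early step or over the knockout limit on that scale. Beyond that, the causes of these changes were not tested. With the replicate block 10 were higher and 6 lower in P30 than in P15 knockout. The replicate numbers share no stated animal or batch, and same-numbered deviations correlated at over 0.1 in 5 of 28 pairs of groups (-0.22 to 0.48). The median over all tested probes at P60 wild type minus P30 knockout was -0.31, and -0.13 with 75th percentile scaling. No chip was given in the headers, so a chip block was not run.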

Other observations

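Across 7006 pairs with the same symbol and accession the mean deposited log2 level correlated at 0.28 and the P60 difference between wild type and knockout at 0.18. Across 3695 pairs with the same symbol and different accessions the values were -0.02 and 0.00. These are correlations across probes of the same 16 arrays, given as a description. Whether the identifiers, the values or the gene table are joined wrongly was not tested.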
